A study of Homo sapiens with 6 samples.

Results

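The genes described here encode the receptors for glutamate and GABA, the main excitatory and the main inhibitory transmitter of the brain. They are 42 genes given by name, out of 19974 protein-coding genes on chromosomes 1 to 22 and X: 4 AMPA, 7 NMDA, 5 kainate and 1 delta subunit of the glutamate-gated channels, 7 metabotropic glutamate receptors, 16 GABA-A subunits (among them 3 rho subunits) and 2 GABA-B subunits. Each gene was taken as its GRCh38 interval extended by 1 kb at both ends, and the peaks overlapping it by at least 1 bp were collected. Chromatin immunoprecipitation followed by sequencing (ChIP-seq) had been done in neurons that had been matured from progenitors of the KOLF2.1J line, a widely used reference line of human induced pluripotent cells, with no treatment named. There were 2 libraries for CTCF, 2 for H3K27ac and 2 inputs, and the files analysed were 1 peak list per antibody covering both of its libraries. No spread between replicates could therefore be estimated, read depth is unknown, and no difference below carries a test. The peaks come from bulk cultures, in which a mark in few cells and a weak mark in all cells cannot be told apart.

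AMPA receptors carry most fast excitatory current, NMDA receptors admit calcium and need both glutamate and a co-agonist, and kainate receptors modulate release and excitability. Metabotropic glutamate receptors and GABA-B receptors act through G proteins. GABA-A receptors are chloride channels built from several subunit families. H3K27ac, an acetylated form of histone H3, marks active promoters and enhancers. CTCF binds a defined DNA motif and, with cohesin, holds the bases of chromatin loops.

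The H3K27ac list held 281 peaks that overlapped a receptor gene, and 32 of the 42 genes had at least 1 (76.2%, 95% Wilson interval 61.5 to 86.5%, counting error only). Of all protein-coding genes, 70.8% overlapped an H3K27ac peak. Receptor genes are long, with a median length of 146 kb, and among protein-coding genes within 20% of the length of each member a mean of 86.8% had such a peak. CTCF peaks numbered 142 and lay in 34 of the 42 genes (81.0%, interval 66.7 to 90.02%), against 60.4% of all protein-coding genes and 81.8% of those of similar length. Both marks were present in 29 genes. H3K27ac without CTCF was listed in GABRA6, GABRQ and GABRR1, and CTCF without H3K27ac in GRIN2C, GRIN3B, GRM2, GABRP and GABRR3. The 5 genes without a peak of either list were GRM6, GABRA3, GABRG1, GABRD and GABRE, or 11.9% of the members against 20.5% of all protein-coding genes. That last share was not matched for gene length, and a matched one was not computed.

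The cultures' labelled cell type was compared with marker genes. An H3K27ac peak overlapped 10 of 10 neuron markers, 7 of 7 neural progenitor markers, 6 of 7 inhibitory, 3 of 6 excitatory, 5 of 6 astrocyte, 2 of 5 oligodendrocyte and 2 of 4 pluripotency markers. Of all protein-coding genes 70.8% overlapped one, and these counts were not matched for gene length. The median of their highest fold enrichments was 35.4 for progenitor, 17.4 for neuron, 14.3 for astrocyte, 8.33 for inhibitory, 6.55 for excitatory, 6.23 for pluripotency and 5.84 for oligodendrocyte markers. Fold enrichment is the authors' value per H3K27ac peak, so read from the layout of the list. The part of cells other than neurons in the receptor gene peaks was not tested.

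Transcription starts with their strand were listed by RefSeq for 34 of the 42 genes, 51 starts in all. An H3K27ac peak lay within 1 kb of a listed start in 22 of these 34 genes (64.7%), against 65.9% of all protein-coding genes with a listed start. For CTCF the number was 18 of 34 (52.9%), against 35.4%. Of the 8 members with no listed start, 5 had H3K27ac within 1 kb of an end of the gene (53.2% of such protein-coding genes) and 3 had CTCF there (35.2%). The 21 genes with CTCF at a start or end became 13 when only the 50% of the CTCF list with the highest signal values was used. The share of all protein-coding genes with that shorter list was not computed, so the 13 has no comparison. The CTCF peak at the GRM7 start, for example, had a signal value of 12.2. The DNA just upstream of selected starts is given next, as the 250 bases before the start on the strand of the gene (RefSeq, GRCh38.p14), with every CpG dinucleotide in capitals. GRIK4, GRIA1 and GRIA4 had the highest H3K27ac fold enrichment at a start. GRIN2D, GRIK2 and GRIN2B are, of the other genes, those with the closest CTCF summit upstream of their first start. GABRG1 had no peak of either list and is shown for contrast, chosen after its values were seen.
GRIK4 second start, chr11:120564184-120564433, plus strand: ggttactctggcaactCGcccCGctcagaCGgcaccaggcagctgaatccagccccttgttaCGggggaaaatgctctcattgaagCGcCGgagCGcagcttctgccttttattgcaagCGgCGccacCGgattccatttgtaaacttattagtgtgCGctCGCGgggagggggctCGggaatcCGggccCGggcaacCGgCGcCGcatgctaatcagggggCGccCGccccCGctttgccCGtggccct
GRIA1, chr5:153490420-153490669, plus strand: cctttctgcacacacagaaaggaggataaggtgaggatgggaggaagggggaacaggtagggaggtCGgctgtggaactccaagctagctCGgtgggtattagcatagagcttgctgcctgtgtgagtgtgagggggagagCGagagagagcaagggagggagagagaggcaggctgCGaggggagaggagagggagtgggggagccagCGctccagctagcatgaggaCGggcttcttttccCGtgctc
GRIA4, chr11:105609744-105609993, plus strand: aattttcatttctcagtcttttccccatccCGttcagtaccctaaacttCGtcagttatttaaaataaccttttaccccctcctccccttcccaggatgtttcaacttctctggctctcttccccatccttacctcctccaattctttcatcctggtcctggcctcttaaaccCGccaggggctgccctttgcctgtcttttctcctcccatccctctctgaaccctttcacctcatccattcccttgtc
GRIN2D, chr19:48393418-48393667, plus strand: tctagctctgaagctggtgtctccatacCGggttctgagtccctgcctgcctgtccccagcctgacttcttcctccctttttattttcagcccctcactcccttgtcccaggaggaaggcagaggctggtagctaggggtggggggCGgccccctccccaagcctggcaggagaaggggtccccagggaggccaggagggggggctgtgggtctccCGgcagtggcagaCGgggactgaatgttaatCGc
GRIK2, chr6:101393458-101393707, plus strand: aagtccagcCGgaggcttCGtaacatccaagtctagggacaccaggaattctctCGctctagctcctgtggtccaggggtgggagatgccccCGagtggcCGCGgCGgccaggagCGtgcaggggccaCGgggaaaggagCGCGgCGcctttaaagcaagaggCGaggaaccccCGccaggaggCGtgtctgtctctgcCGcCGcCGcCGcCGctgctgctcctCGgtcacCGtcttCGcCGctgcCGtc
GRIN2B, chr12:13982135-13982384, minus strand: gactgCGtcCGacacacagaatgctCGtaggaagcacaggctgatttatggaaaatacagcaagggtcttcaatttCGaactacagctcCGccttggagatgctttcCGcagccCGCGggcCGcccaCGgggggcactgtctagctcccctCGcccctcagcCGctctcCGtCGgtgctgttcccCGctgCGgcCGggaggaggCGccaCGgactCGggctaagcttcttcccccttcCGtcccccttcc
GABRG1, chr4:46124055-46124304, minus strand: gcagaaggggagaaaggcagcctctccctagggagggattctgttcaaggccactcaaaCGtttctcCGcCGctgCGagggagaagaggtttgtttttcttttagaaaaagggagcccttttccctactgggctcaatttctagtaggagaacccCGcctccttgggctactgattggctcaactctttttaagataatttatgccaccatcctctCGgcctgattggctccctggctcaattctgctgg
The printed stretch holds 23 CpG in GRIK4, 25 in GRIK2 and 21 in GRIN2B, and 7 in GRIA1, 3 in GRIA4, 5 in GRIN2D and 6 in GABRG1. High H3K27ac was thus listed both at a CpG-dense start (GRIK4) and at a CpG-poor one (GRIA1). The GRIA4 peak covers the CpG-poor first start and also a later listed start with 26 CpG in 300 bases.

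CpG content was then counted in the 300 bases around each listed start (250 before, 50 after), taking for each gene its start with the most CpG. Among members with 0 to 11 CpG, 6 of 13 had H3K27ac within 1 kb of a start, where 17.2% of protein-coding genes in that range did. With 12 to 24 CpG it was 4 of 4 (75.3%), and with 25 or more it was 12 of 17 (86.7%). The CpG-poor members with H3K27ac at a start were GRIA1, GRIN2D, GRM3, GRM4, GABRB1 and GABRB2. The CpG-dense members without it were GRM2 and GRIN3B (34 CpG each), GABRE (41), GABRQ (27) and GRM5 (25). GRM2 and GRIN3B instead had CTCF at the start, with signal values up to 40.5 and 161. GABRE, GABRQ and GRM5 had neither mark there.

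**Figure D1:**
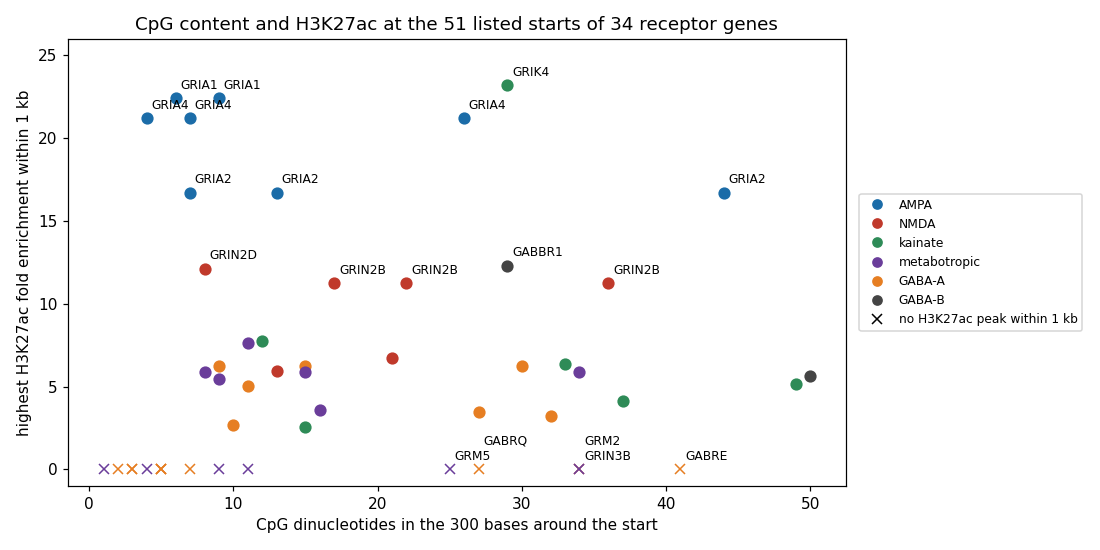
CpG dinucleotides in the 300 bases around each of the 51 listed starts (x axis) against the highest H3K27ac fold enrichment of a peak within 1 kb (y axis), coloured by receptor class, with crosses at 0 for starts without a peak. Starts of the same gene can share a peak, as in GRIA4 (3 points at 21.2), and the crosses reach from 1 CpG (a GRM8 start) to 41 CpG in GABRE.

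Among the AMPA subunits, GRIA1, which encodes GluA1, stood out in the number of H3K27ac peaks. It held 37 over 324 kb, where genes of similar length had a median of 8 (percentile 95.03 of 453 genes, ties counted at their middle rank). These were 13.2% of all H3K27ac peaks in receptor genes and covered 26.6 kb. A peak of 2506 bp over its first start had a fold enrichment of 22.4, but the strongest, 34.5, lay 80.2 kb downstream of the nearest start (chromosome 5, 153571799 to 153572954) at percentile 97.7 of the whole H3K27ac list. A further 1 at 17.7 followed it, and peaks of 16.1 and 12.3 lay between the start and that site. CTCF was sparse in GRIA1, with 3 peaks against a median of 4 and a highest signal value of 171. CTCF signal values are as the authors gave them, in a unit no source used here names.

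GRIA2, encoding the subunit that sets the calcium permeability of AMPA receptors, had 4 H3K27ac peaks, as many as the median of genes of similar length. Its strongest peak ran over the start (157220031 to 157223429 on chromosome 4, 3399 bp wide, fold enrichment 16.7), was the widest of all receptor gene H3K27ac peaks, and contained the only CTCF peak of the gene (signal value 92.8). The remaining gene body had an H3K27ac-free stretch of 141 kb. GRIA4 (GluA4) likewise had its strongest peak at the start, at 21.2, with CTCF values of 156 and 91.8 within 1 kb. GRIA3 (GluA3), on chromosome X and without a listed start, had its strongest peak, 7.23, at the lower-coordinate end of the gene. Without GRIA1, the density of H3K27ac peaks over the AMPA genes was 2.17 per 100 kb, and with it 4.75.

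**Figure D2:**
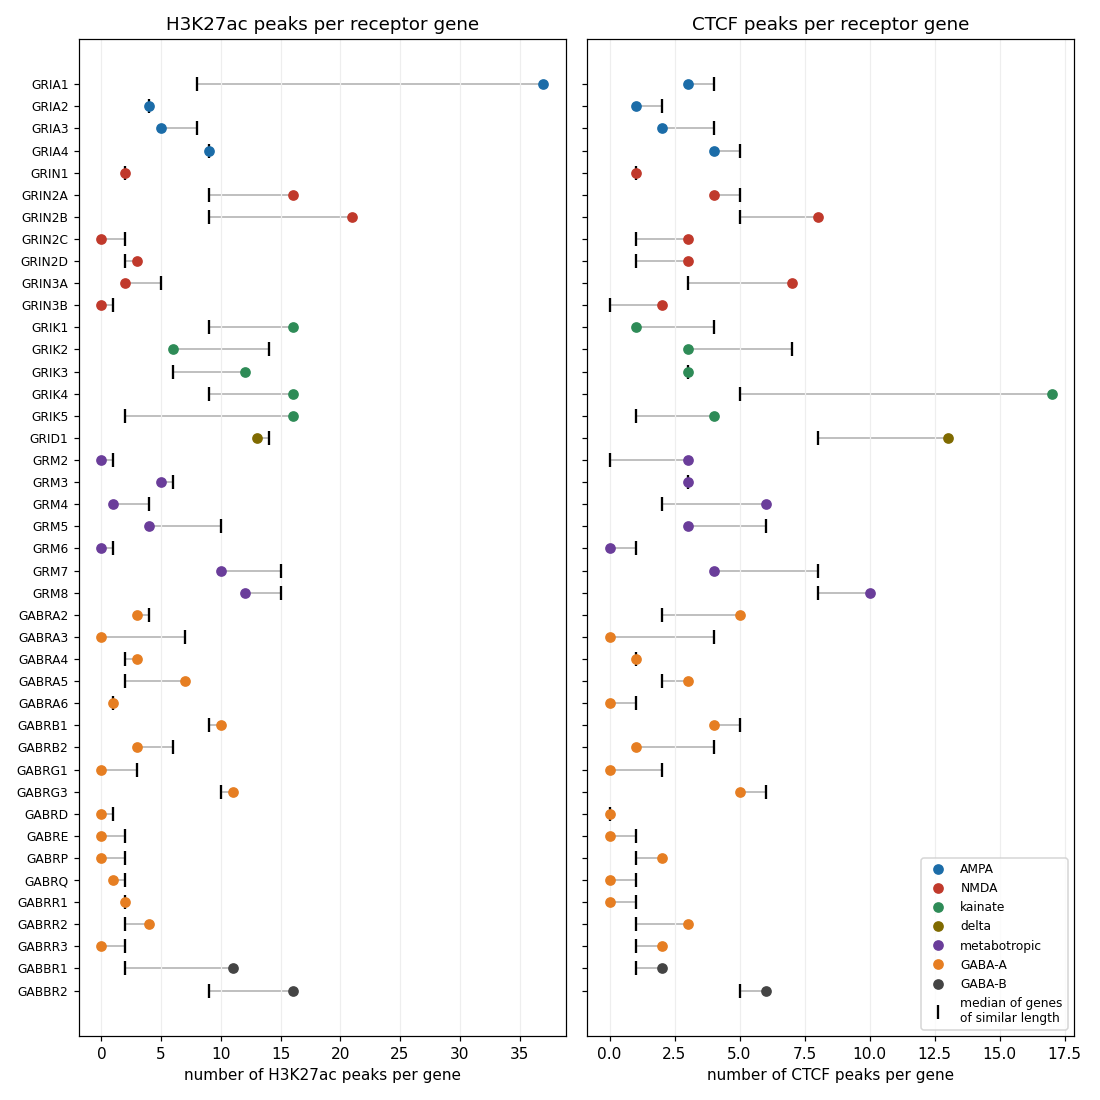
Number of H3K27ac peaks (left) and CTCF peaks (right) overlapping each of the 42 receptor genes (points, coloured by class), with the median of protein-coding genes within 20% of its length (black ticks). GRIA1 reaches 37 H3K27ac peaks against a median of 8, and GRIK4 17 CTCF peaks against a median of 5.

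NMDA receptors combine the obligatory GluN1 subunit with GluN2 and GluN3 subunits. GRIN1, encoding GluN1, had 2 H3K27ac peaks, 1 at each end of the gene. The stronger, with a fold enrichment of 10.6, overlapped the interval of LRRC26 and lay within 1 kb of its listed start, and the weaker had 4.32. Both lay in the added 1 kb, outside the annotated interval, and without that extension GRIN1 had 0 H3K27ac peaks. GRIN2B (GluN2B, the subunit known for its early expression) held 21 H3K27ac peaks against a median of 9 (percentile 79.9). Its start carried 11.3, and a group of stronger peaks stood far downstream, the nearest of them at 241 kb. The first of these, 13738739 to 13741461 on chromosome 12, had 24.01 and overlapped CTCF, and the others, 252 and 253 kb downstream, reached 21.3 and 14.4. GRIN2A (GluN2A) had 16 peaks against 9, with 5.96 the highest at its start and 9.22 the highest anywhere, 361 kb downstream.

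GRIN2D, a GluN2 subunit gene of 51.3 kb, had 12.1 at its start and 14.1 inside. Its strongest peak, 28.1, lay at the far end within 1 kb of the listed start of GRWD1, so it cannot be assigned to GRIN2D alone. GRIN3A (GluN3A) had 2 peaks with a highest value of 6.70, at its start. GRIN2C (GluN2C) and GRIN3B (GluN3B) had no H3K27ac peak. All 7 NMDA genes had CTCF peaks, where a mean of 74.7% of genes of similar length did. By number, 6 of them, all but GRIN2A, stood above percentile 50 of genes of similar length, where 47.4% of protein-coding genes did. GRIN1 was among the 6 with 1 peak against a median of 1. GRIN3A held 7 CTCF peaks against a median of 3 (percentile 94.6) and GRIN2C 3 against 1 (percentile 93.6). The strongest CTCF peak in any receptor gene was in GRIN2B, with a signal value of 347 (percentile 98.8 of the whole CTCF list), 117 kb downstream of the nearest start. A further 296 stood 83 bp upstream of its first start.

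The kainate subunit genes were all marked by H3K27ac at a start or, for GRIK1, at the upper end of the gene. Such a peak lay at a start in 65.9% of protein-coding genes with a listed start, and at an end in 53.2% of those without. GRIK4 (GluK4) has 2 listed starts 52.7 kb apart. The first, with 49 CpG, had H3K27ac of 5.15 and CTCF of 292. At the second, H3K27ac reached 23.2 in a peak of 3222 bp with its summit 65 bp from the start, and CTCF reached 186. The higher H3K27ac value and the higher CTCF value were thus at different starts of this gene. GRIK4 also held 17 CTCF peaks, the most of any receptor gene, against a median of 5 (percentile 99.1), 7 of them with the width of 800 bp that recurs among weak CTCF peaks. GRIK5 (GluK5), a gene of 71.9 kb, held 16 H3K27ac peaks against a median of 2 (percentile 98.5), with a highest value of 18.5 far from the start and 7.77 at it. GRIK3 (GluK3) held 12 against 6, and GRIK1 (GluK1) 16 against 9, while GRIK2 (GluK2), of 676 kb, held only 6 against 14. GRIK2 was also sparse in CTCF, with 3 peaks against a median of 7 and a stretch of 674 kb without any. The delta subunit gene GRID1 (GluD1) had 13 peaks of each list, with H3K27ac up to 15.6 at its upper end and up to 17.7 inside.

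**Figure D3:**
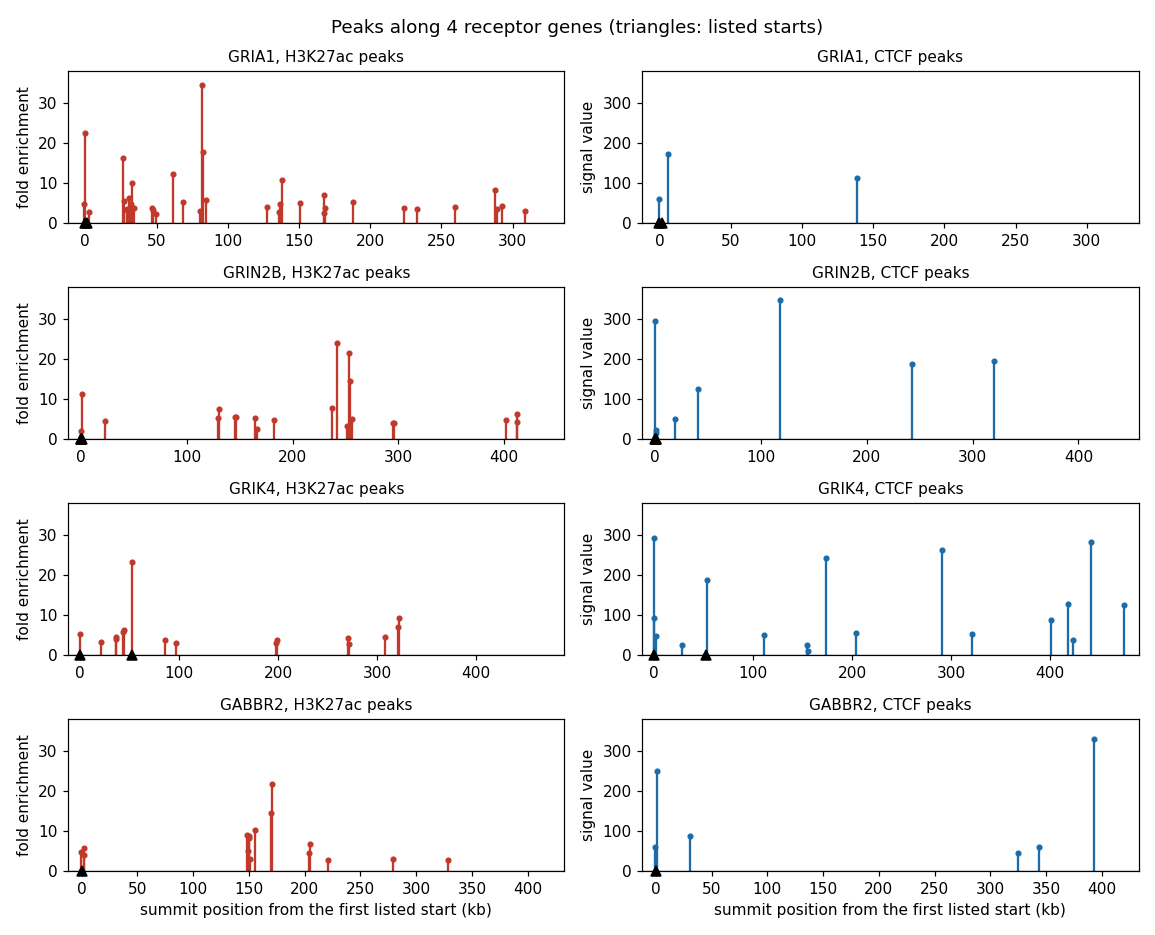
Summit positions of H3K27ac peaks (left, fold enrichment) and CTCF peaks (right, signal value) along GRIA1, GRIN2B, GRIK4 and GABBR2, in kb from the first listed start in the direction of transcription, with triangles at listed starts. The tallest H3K27ac line stands inside the gene in GRIA1 (34.5), GRIN2B (24.01) and GABBR2 (21.7), and at the second start in GRIK4 (23.2).

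The metabotropic glutamate receptor genes had low H3K27ac values. GRM2 and GRM6 had no H3K27ac peak, although GRM2 had 2 with an extension of 5 kb. In GRM3, GRM4, GRM5, GRM7 and GRM8 the highest fold enrichment was 10.3, 5.48, 3.68, 5.65 and 9.02, each below the median of the strongest peaks in genes of similar length, which lay between 14.5 and 17.8. None of the 7 genes had more H3K27ac peaks than that comparison's median. GRM3 (mGlu3), GRM4 (mGlu4), GRM7 (mGlu7) and GRM8 (mGlu8) had a peak at a start, with values of 7.62, 5.48, 3.61 and 5.88. GRM5, encoding the group I receptor mGlu5, had 4 peaks over 561 kb and none within 1 kb of its listed starts. CTCF was listed in 6 of the 7 genes, where 83.4% of genes of similar length had a peak, and reached 320 in GRM4 and 317 in GRM5. GRM2 (mGlu2), a gene of 11.5 kb, held 3 CTCF peaks where the median was 0 (percentile 96.5), the strongest of them beyond its far end. The other GRM2 CTCF peaks, with signal values of 40.5 and 14.2, overlapped each other at the start. Without the 1 kb extension GRM2 had 1 CTCF peak. GRM4 held 6 against 2 (percentile 93.8).

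GABA-A subunit genes had the lowest share with H3K27ac among the classes of more than 2 genes: 10 of 16 (62.5%, Wilson interval 38.6 to 81.5%), where 83.4% of genes of similar length had a peak. A peak lay at a listed start in 5 of 13 (65.9% of protein-coding genes) and at an end in 1 of 3 without a listed start (53.2%). Its highest fold enrichment was 6.23 in GABRA2 (alpha 2), 5.05 in GABRB2 (beta 2), 3.43 in GABRG3 (gamma 3), 3.24 in GABRA4 (alpha 4), 2.87 in GABRA5 (alpha 5) and 2.70 in GABRB1 (beta 1). Anywhere in the genes, the highest value was 10.2, in GABRR2 (rho 2), 2.82 kb downstream of its start. All 10 GABA-A genes with a peak were below the median of the strongest peaks in genes of similar length. Peak numbers were not uniformly low. GABRA5 held 7 H3K27ac peaks against a median of 2 (percentile 86.0), GABRB1 held 10 against 9 and GABRG3 11 against 10. Of the GABRB1 peaks, 1 lay at the start of GABRA4 and was counted for both genes. Without the 1 kb extension GABRB1 held 9. GABRA3 (alpha 3), which spans 285 kb on chromosome X, held none of either list where the medians were 7 and 4 (percentiles 2.02 and 1.63). GABRG1 (gamma 1), also without a peak, compares with medians of 3 and 2. GABRP (pi) and GABRR3 (rho 3) had 2 CTCF peaks each, up to 164 and 247, and no H3K27ac.

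Most GABA-A genes lie in groups. On chromosome 4, GABRG1, GABRA2, GABRA4 and GABRB1 span 1393 kb, which held 18 H3K27ac peaks (1.29 per 100 kb) with a highest fold enrichment of 7.36. On chromosome 15, GABRA5 and GABRG3 span 677 kb with 18 H3K27ac peaks (2.66 per 100 kb) up to 6.91. On chromosome X, GABRE, GABRA3 and GABRQ span 708 kb with 3 H3K27ac peaks (0.424 per 100 kb), 2 of them outside the 3 genes, and 2 CTCF peaks, both outside. The rho genes GABRR1 and GABRR2 on chromosome 6 span 140 kb with 8 H3K27ac peaks (5.72 per 100 kb) up to 10.2. Strong CTCF peaks in these groups included 302 in GABRB1, with its summit 1247 bp downstream of the start, and 298 in GABRA5. At the start of GABRB1 that CTCF value stood beside H3K27ac of 2.70. At the lower end of GABRA5 another CTCF peak, of 262, stood beside H3K27ac of 2.87. On chromosome 5, GABRB2 and GABRA6 span 416 kb with 4 H3K27ac peaks up to 5.05 and 2 CTCF peaks.

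Both GABA-B subunit genes, whose products form an obligate heterodimer, carried H3K27ac above the comparison median in number and in strength. GABBR1 held 11 H3K27ac peaks over 30.9 kb against a median of 2 (percentile 98.86). Its listed start had 12.3 and CTCF of 277. A stronger peak, 18.8 (29632197 to 29634104 on chromosome 6), had its summit 5.40 kb upstream of that start, over the annotated upper end of the gene. GABBR2 held 16 against 9 (percentile 72.0), with 5.61 at its start and 21.7 at a site 170 kb downstream, beside further peaks of 14.4 and 10.3. Its strongest CTCF peak (331) lay 393 kb downstream.

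**Figure D4:**
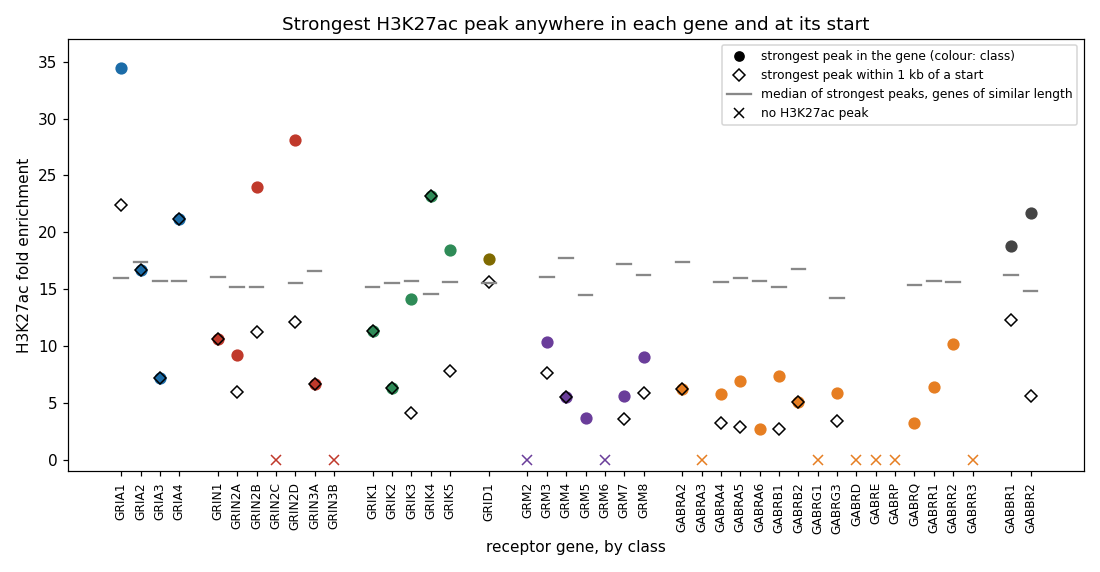
Highest H3K27ac fold enrichment of each receptor gene (filled points, by class), highest value within 1 kb of a start, or of an end where no start is listed (open diamonds), and median of the highest values in genes of similar length (grey lines), with crosses for genes without a peak. AMPA, NMDA, kainate, delta and GABA-B genes reach above the grey lines 9 times, metabotropic and GABA-A genes not once. Among the 9 is GRIN2D, only through its peak at the listed start of GRWD1.

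Of the 32 members with a peak, 9 (28.1%) had a highest fold enrichment above the median of genes of similar length, where 50% of all protein-coding genes with a peak did, and 17 (53.1%) stood below percentile 25, where 24.9% did. The 9 include GRIN2D through its peak of 28.1 at the GRWD1 start. Its next peak, 14.1, was below its comparison median of 15.6. By number of peaks, 17 of 42 (40.5%) stood above percentile 50, against 49.8% of protein-coding genes, and 3 (GRIA1, GRIK5 and GABBR1) stood above percentile 90 (7.14%, against 9.87%). For CTCF the highest values were spread about the middle: 17 of 34 (50%) stood above the median, against 50.1%. By number of CTCF peaks 19 of 42 (45.2%) stood above percentile 50 (47.4%) and 6 above percentile 90 (14.3%, against 9.67%), namely GRIN2C, GRIN3A, GRIK4, GRIK5, GRM2 and GRM4.

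The strongest H3K27ac peak was usually away from the start. Of 27 members with a listed start and an H3K27ac peak, 19 (70.4%) had their strongest peak more than 1 kb from every listed start, where this held for 21.6% of protein-coding genes and for a mean of 37.3% of those of similar length. Of these 19 genes, 14 also had a weaker peak at a start, and in 18 the strongest peak lay downstream of the nearest start. Peaks were collected only to 1 kb beyond each gene, so this direction was largely set by the definition. The distances ran from 2.82 kb (GABRR2) to 791 kb (GRM7) with a median of 80.2 kb. In GRIN2D that peak lay at the start of another gene, and in GABBR1 at the annotated end of the gene itself. Counting annotated 5′ ends as starts gave 18 of 27 (66.7%), against 19.8% of protein-coding genes and 34.2% of those of similar length. For CTCF, the strongest peak lay away from the start in 21 of 28 (75%), against 63.2% of protein-coding genes and 78.4% of those of similar length. With annotated 5′ ends counted as starts it was again 21 of 28, against 61.7% of protein-coding genes and 77.0% of those of similar length.

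CTCF and H3K27ac met at 38 of the 142 CTCF peaks in receptor genes (26.8%, Wilson interval 20.2 to 34.6%), against 37.1% of CTCF peaks in protein-coding genes. The members' share was 17.6% when the CTCF summit had to lie inside the H3K27ac peak, and 10.6% for 100 bp around each of the summits. These narrower shares were not computed for all CTCF peaks in protein-coding genes, so they cannot be set against the 37.1%. That 37.1% was also not matched for gene length. In the other direction 39 of 281 H3K27ac peaks (13.9%, interval 10.3 to 18.4%) overlapped CTCF, against 18.4%. The recurrent width of 800 bp was found in 52 of the 142 CTCF peaks (36.6%, against 35.7% in protein-coding genes), and their median signal value was 38.2, while that of the other 90 was 137. H3K27ac peaks of 2 kb or wider numbered 12 (4.27%, against 5.02%) and lay in 8 genes, GRIA1 holding 4 of them. Both marks lay within 1 kb of a listed start in 16 of 34 genes, against 31.3% of protein-coding genes with a listed start.

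Motifs were searched on both strands in the 300 bases around each of 34961 RefSeq starts of protein-coding and long non-coding genes. A core of the CTCF motif was present at 10.6% of them and at 5 of the 51 receptor starts, in GRIK2, GRIN3A, GRIN2B, GABRR2 and GABRG3. In GRIK2, GRIN3A and GRIN2B the match lay 18, 22 and 31 bp from a CTCF summit with a signal value of 118, 186 and 296. In GABRR2 and GABRG3 the nearest summit was 3376 and 425 bp away. The matches beside summits are given with their flanks, the match in capitals, on the strand of the gene.
GRIK2, chr6:101393623-101393649, plus strand: aggaacccCCGCCAGGAGGCgtgtctg
GRIN3A, chr9:101738749-101738775, minus strand: gaatctcaCCAACAGTGGGCgtttagc
GRIN2B, chr12:13982173-13982199, minus strand: cgctgcggCCGGGAGGAGGCgccacgg
The match reads on the strand of the gene in all of these, 77, 120 and 57 bp upstream of the start.

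The REST motif, searched as a single fixed pattern, was found at 18 of the 34961 starts (0.0515%). GRIA2 was the only receptor gene among them. The 8 members without a listed start, such as GRIN1, were not searched for any motif. Sites that depart from the pattern or lie outside the 300 bases were not searched for either. REST is a repressor of neuronal genes in non-neuronal cells. The match lay 272 bp downstream of the first GRIA2 start, on the opposite strand, inside the wide H3K27ac peak of that gene.
GRIA2, chr4:157220384-157220413, plus strand, match in capitals: gcgaggcgCTGTCCTCGGTGCTGaaaggcc
The palindromic motif of NRF1 was present at 1.24% of all starts and at those of GABRB1 and GABRB2, 16 and 13 bp upstream. The cAMP response element TGACGTCA was present at 1.85% and, among receptor starts, at that of GABBR1, 65 bp upstream. A match describes these letters and does not show that a factor binds.

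Genes for proteins that assemble with, anchor or traffic these receptors were taken as a list of 38 partners. An H3K27ac peak overlapped 32 of them, where 70.8% of protein-coding genes had one. It lay at a listed start in 20 of 24 (65.9% of protein-coding genes) and at an end in 8 of 14 without a listed start (53.2%). CTCF overlapped 30 of the 38, against 60.4% of protein-coding genes. These partner counts were not matched for gene length, and some partners are very long, such as DLG2 with 2173 kb. The highest H3K27ac fold enrichment was 70.9 in GPHN, which encodes gephyrin, the scaffold of inhibitory synapses, whereas the highest value at a listed start of that gene was 23.1. GPHN spans 1227 kb, and whether peaks in partner genes lay at starts of other genes was not examined. DLG4, encoding the excitatory scaffold PSD-95, reached 40.6 at a start, and GABARAPL1, a relative of the GABA-A receptor-associated protein, 42.0. Of the AMPA receptor auxiliary subunits, CACNG4 reached 21.7, CACNG7 11.3, CACNG2 9.499, CNIH3 15.2, CNIH2 10.3, CACNG8 4.88 and SHISA9 2.83, and CACNG3, CACNG5, SHISA6, SHISA7 and GSG1L had no H3K27ac peak. By their highest value, 13 of the 31 partners that could be compared stood above the median of genes of similar length, where 50% of protein-coding genes with a peak did.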

How the data were processed

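Per the labels, CTCF and H3K27ac chromatin from KOLF2.1J neurons was precipitated after formaldehyde fixation and sonication. The submitters' processing notes name cutadapt 1.16 and the build hg38. The aligner, peak caller and thresholds are not given in the sources used here. The deposited files are 1 list of 10 columns per antibody, covering both libraries together, so per-sample values, depth and input values were not analysed here. The CTCF list holds the authors' signal per peak, whose unit no source used here names. The H3K27ac list's deposited signal column was read as a ratio (fold enrichment), from its values and layout. Both deposited lists hold −log10 q values, used for filtering only. Of the peaks in receptor genes, 25 of 281 for H3K27ac and 6 of 142 for CTCF had q above 0.05 and were kept.

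Gene intervals and starts came from RefSeq tables of GRCh38.p14, the same build as hg38. They give no exons or introns. Overlap meant at least 1 bp. CTCF peaks that overlapped each other, as in GRM2, GRIK4 and GRID1, were each counted. Percentiles are midranks among protein-coding genes within 20% of a gene's length. Genes without a listed start were judged at both ends. No samples could be compared, and no test was run. Classes follow gene names. Every member is accounted for, and the rule for those described singly took genes with H3K27ac at a start, with none at all or with the most peaks. GRM5, GABRR2 and the other members named beside them were added after their values were seen. Partner and marker lists, members and tests were chosen with earlier results of these data known. Overlap and percentile code was tested on simulated data. Python 3.11.15, pandas 2.3.3 and SciPy 1.17.1 were used. Alternatives covered stricter lists, overlap by summit, extension, start distance, length matching, and merged or filtered CTCF peaks.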

Additional observations from a re-analysis of the deposited data

How the results depend on the processing

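No paired analysis was possible because the peaks of both libraries of an antibody stand in a single list, and no library could be left out for the same reason. Of 54 alternatives for results over the whole set, 51 kept the count within 1.5 times or the share within its interval, and 3 moved. CTCF at a start or, without a listed start, an end was found in 21 genes, and in 13 with the 50% of the list with the highest signal values. The share of CTCF peaks overlapping H3K27ac (26.8%) was 17.6% when the CTCF summit had to lie inside the other mark's peak, and 10.6% with 100 bp windows centred on each summit. The cause was not tested, beyond the narrower definitions themselves. For single genes and classes, 612 of 686 alternatives kept the count within 1.5 times and 74 moved. Many H3K27ac peak numbers of single genes fell with the 50% of the list with the highest signal values. GRIA1 then held 15 (37 in the full list), GRIK5 7 (16), GABBR1 5 (11) and GRIK1 3 (16). Others stayed within 1.5 times, such as GRIA2 with 3 (4) and GRIN2D with 3 in both. By number of H3K27ac peaks, 16 members stood above percentile 50 with that list, against 17. Alternatives for the place of the strongest peak, the partner genes and the removal of peaks at other genes' starts were chosen after seeing the data. H3K27ac was found in 29 to 34 of 42 genes throughout, and the strongest H3K27ac peak lay away from the start in 18 to 20 of 27. Depth is unknown, so a gene without a peak may hold signal below the authors' threshold.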
